A study of Mus musculus with 24 samples.

Results

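The adaptor genes of Toll-like receptor signalling were followed in CD11c+ cells from mesenteric lymph nodes of tumour-bearing mice. The genes were chosen by name, with earlier results of these data known. They were the adaptors Myd88, Tirap, Ticam1 and Ticam2, the kinases Irak1, Irak2 and Irak4, the ubiquitin ligase Traf6, and the inhibitors Irak3 and Tollip. All 10 were listed among the 12767 genes of the table, and all 10 passed the minimum mean of 10 normalised counts. RNA was sequenced from 24 libraries: 2 genotypes under 4 treatments gave 8 groups of 3. The mice were Myd88 knockout (KO) or wild type (WT), both labelled C57BL/6 females of 6 to 8 weeks injected under the skin with 1000000 MC38 colon carcinoma cells. The treatments were anti-PD-1 antibody with live oral LGG (the combination), LGG alone, anti-PD-1 alone, and IgG control antibody. LGG is a strain of Lactobacillus rhamnosus, and anti-PD-1 blocks an inhibitory receptor of T cells. Treatment started 7 to 10 days after injection, at a mean tumour size of 100 mm3. It was given 2 times a week for 2 to 3 weeks, with 200 ug of antibody per mouse. The LGG groups have no antibody in their treatment label, so the step between LGG and IgG includes the antibody. The labels describe the knockout as of the whole mouse, name no allele, and do not say that replicates were separate animals, so p-values measure only the spread between these libraries, which may be technical. Mice were pooled before they were divided into groups.

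Toll-like receptors bind microbial molecules and recruit adaptors through a shared domain. MyD88, reached through the bridging adaptor TIRAP at some receptors, assembles the kinases IRAK4, IRAK1 and IRAK2, which hand the signal to TRAF6 and on to NF-kB and MAP kinases. TRIF, the product of Ticam1, serves TLR3 and, through TRAM (Ticam2), TLR4, and leads to interferon genes as well. IRAK-M (Irak3) and TOLLIP restrain the MyD88 branch. In dendritic cells the pathway drives cytokine release and maturation.

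Promoter sequence is shown for the knocked-out gene, Myd88, and for Ticam1 and Traf6, which rose together with LGG. Each is the 250 bases before the RefSeq start, 5′ to 3′ on the gene's own strand, from RefSeq on GRCm38.p6. The windows are chr9:119340019-119340268 on the minus strand for Myd88, chr17:56276768-56277017 on the minus strand for Ticam1 and chr2:101678170-101678419 on the plus strand for Traf6. In the GENCODE annotation used for gene positions the Myd88 span reaches farther upstream than this start, so the Myd88 window lies inside that span, with 23 of its bases in annotated exons (19 for Ticam1 and 0 for Traf6). Capitals mark a match to the interferon response motif, GAAA and GAAA with any 2 bases between.
Myd88: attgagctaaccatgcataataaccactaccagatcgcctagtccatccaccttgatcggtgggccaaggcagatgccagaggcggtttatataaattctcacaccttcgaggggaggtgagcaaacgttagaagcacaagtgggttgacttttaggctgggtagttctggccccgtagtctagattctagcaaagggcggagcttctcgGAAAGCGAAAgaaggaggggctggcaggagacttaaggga
Ticam1: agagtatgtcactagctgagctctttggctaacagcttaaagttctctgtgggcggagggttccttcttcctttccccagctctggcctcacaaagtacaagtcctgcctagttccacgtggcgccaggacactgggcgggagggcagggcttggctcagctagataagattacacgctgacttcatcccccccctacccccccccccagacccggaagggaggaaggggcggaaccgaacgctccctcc
Traf6: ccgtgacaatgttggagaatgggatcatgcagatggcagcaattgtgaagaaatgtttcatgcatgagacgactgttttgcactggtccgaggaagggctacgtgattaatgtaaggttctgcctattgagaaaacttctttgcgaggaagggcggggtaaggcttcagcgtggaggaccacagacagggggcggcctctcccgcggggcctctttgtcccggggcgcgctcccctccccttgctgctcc
Of the 10 genes, 9 had a promoter in the table. Both strands were searched for this motif, for the AP-1 motif TGANTCA and for the NF-kB motif. These occurred in 2.98%, 6.75% and 7.25% of 32851 promoters. The Myd88 window held GAAAGCGAAA, 40 to 31 bases before the start. The Irak1 window held 1 NF-kB match, GGGACGCCCC, 18 to 9 bases before the start. The other 7 windows held none of these letters.

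Reads in listed genes ranged from 24531528 to 49272593 per library. KO anti-PD-1 replicates 2 and 3 and KO LGG replicate 2 stood apart from their groups, with a root mean square log2 distance from the group mean of 0.583, 0.578 and 0.446, against 0.162 to 0.343 in the other 21 libraries. The dendritic cell marker Itgax, which encodes CD11c, was counted in every library. In KO it was 42029 to 53698 in the 6 libraries with LGG and 33061 to 37827 in the 6 without it, and in WT it was 9637 to 10341 with LGG and 22690 to 25427 without it. It was thus higher with LGG in KO and lower with LGG in WT, with no overlap in either genotype. Itgax is among the 13 conventional dendritic cell markers counted below. For LGG against IgG in WT, 7 of the 13 rose and 3 fell, beside 27.4% and 28.2% of all genes, and their sum was higher with LGG. Summed Y-linked counts over 4 genes were 3060 to 4857 in the 12 KO libraries and 0.9395 to 10.45 in the 12 WT libraries, although all mice are labelled female. The genotype and this difference cannot be told apart. Markers of other cells were present in every group, and no listed marker was at 0 in all libraries of a group. In bulk RNA, fewer cells of a type and less RNA per cell cannot be told apart.

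Myd88 (ENSMUSG00000032508, chr9:119335934-119341411, minus strand, mm10) was counted in all libraries. KO libraries had 748, 758 and 742 normalised counts with the combination, 737, 1100 and 697 with LGG, 1459, 884 and 1837 with anti-PD-1, and 1327, 1350 and 1136 with IgG. WT libraries had 1919, 1723 and 1820 with the combination, 2120, 2232 and 1954 with LGG, 2027, 1852 and 1842 with anti-PD-1, and 1970, 1774 and 1957 with IgG. Within each treatment all KO libraries lay below all WT libraries, though KO anti-PD-1 replicate 3 lay within the range over all WT libraries. These counts sum over all exons, so a deleted exon would not be seen as such, and 11.26% of the Myd88 exon bases are shared with Acaa1a on the opposite strand. The strand setting of the counting is not given in the sources used here.

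Myd88 fell in KO libraries under all 4 treatments. The log2 difference was -1.28 ± 0.19 with the combination (SE, adjusted p = 7.66e-06, limma), -1.34 ± 0.19 with LGG (adjusted p = 4.37e-06), -0.51 ± 0.19 with anti-PD-1 (adjusted p = 0.0334) and -0.58 ± 0.19 with IgG (adjusted p = 0.0185). With anti-PD-1 it was -0.22 (adjusted p = 0.182) without KO replicate 2, and -0.47 to -0.54 (adjusted p = 0.0648 to 0.0857) without WT replicate 1, 2 or 3. With IgG it was -0.50 to -0.56 (adjusted p = 0.0541 to 0.0725) without WT replicate 1, WT replicate 3 or KO replicate 3. The Myd88 mean was lowest in the 2 KO groups with LGG.

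**Figure D1:**
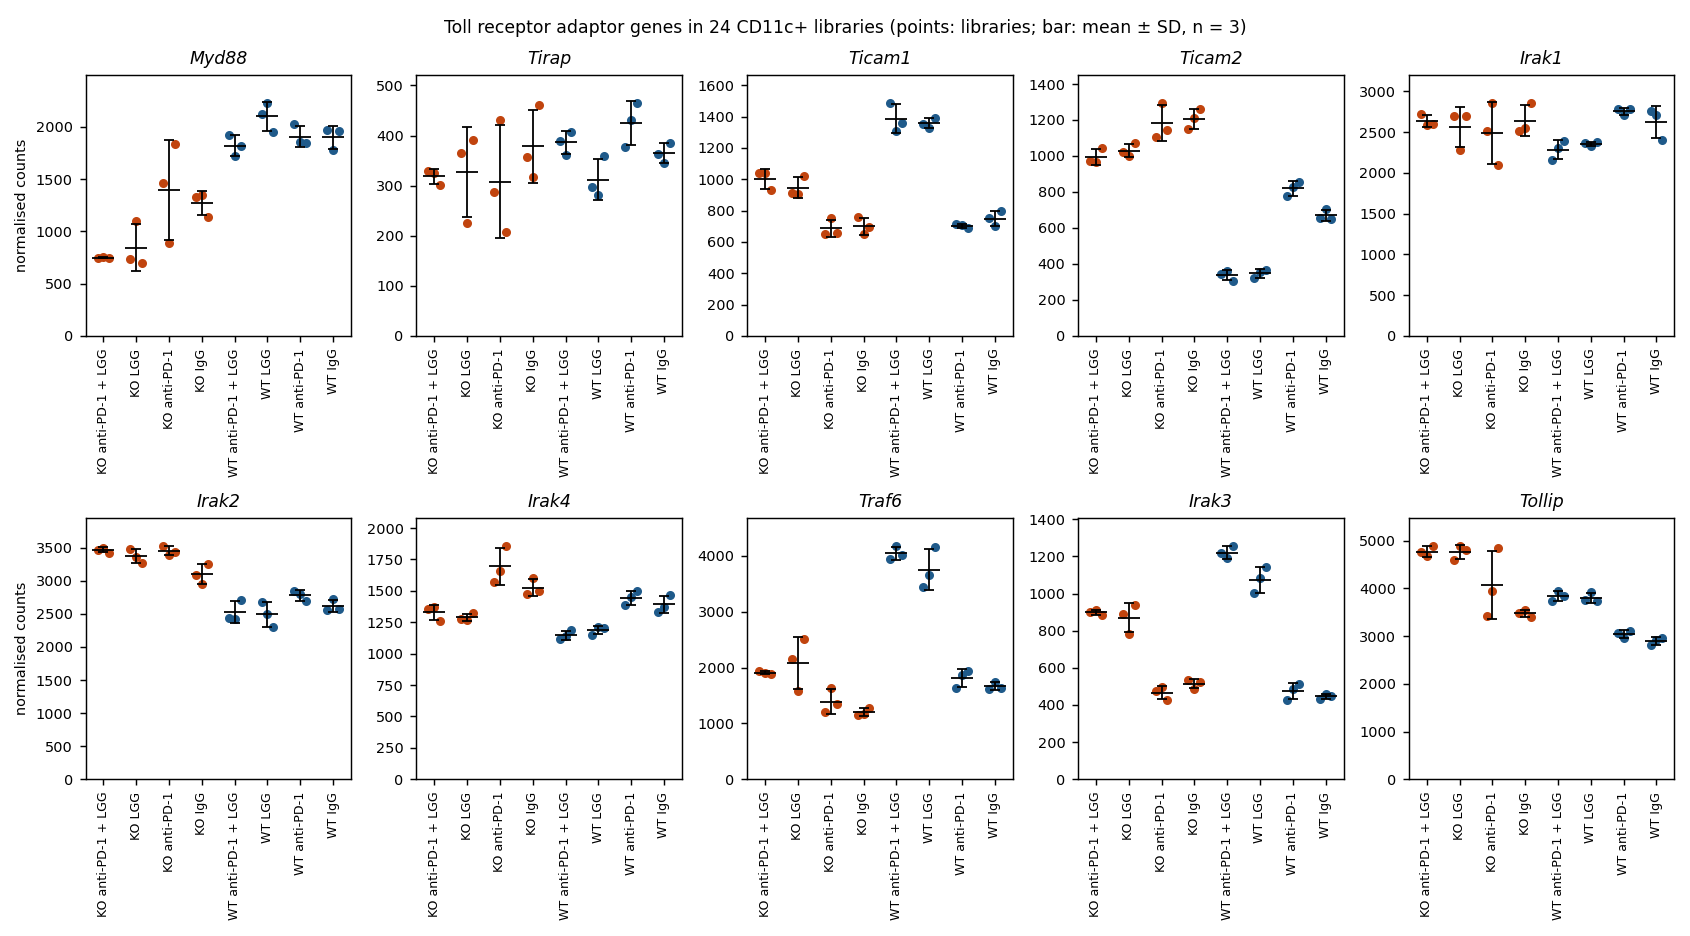
Normalised counts of the 10 genes in each library, with KO groups (orange) to the left of WT groups (blue). Points are libraries and bars are the mean ± SD of 3 libraries. Traf6 and Irak3 are highest in the 6 WT libraries with LGG, and Ticam2 is lowest there.

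Within each genotype, libraries with LGG were set against IgG libraries, and those with the combination against those with anti-PD-1. These comparisons share no library, but limma used the same spread per gene in each, estimated over all 24 libraries. In KO, 7 of 10 members were called in LGG against IgG (4 rose, 3 fell), where 32.2% of all 12749 genes tested were called (18.1% rose, 14.2% fell). For the combination 7 were called in KO (4 rose, 3 fell), beside 36.7% of all genes (19.7% rose, 17% fell). The same 7 genes moved in the same direction in both. In WT, 6 members were called in LGG against IgG (4 rose, 2 fell), beside 55.5% of all genes (27.4% rose, 28.2% fell). For the combination 7 were called in WT (4 rose, 3 fell), beside 56.8% of all genes (27.7% rose, 29.1% fell). All 6 of the first were among these 7, in the same direction. The WT share is close to that of all genes. The median log2 difference of the members was 0.04 in KO and 0.04 in WT for LGG against IgG, beside 0 and -0.003 for all genes. With only the compared libraries in the fit, 4 were called in KO for LGG, where the 3 falls (Myd88, Ticam2, Irak4) missed the threshold, and 2 for the combination, Ticam1 and Irak3. Over all genes the share called in that fit was 21% for LGG and 9.77% for the combination.

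Ticam1, which encodes the adaptor TRIF, rose with LGG in both genotypes (ENSMUSG00000047123, chr17:56269319-56276786). KO libraries had 1043, 1038 and 930 normalised counts with the combination, against 651, 752 and 655 with anti-PD-1, and 913, 903 and 1023 with LGG, against 758, 649 and 693 with IgG. WT libraries had 1490, 1310 and 1358 with the combination, against 714, 707 and 686 with anti-PD-1, and 1353, 1330 and 1391 with LGG, against 751, 699 and 798 with IgG. Every library with LGG was above every library of its genotype without it, and the 6 WT values were the highest. The log2 difference for LGG against IgG was 0.44 ± 0.08 in KO (adjusted p = 0.000375) and 0.86 ± 0.08 in WT (adjusted p = 2.83e-08). With the combination, against anti-PD-1, it was 0.55 ± 0.08 in KO (adjusted p = 3.23e-05) and 0.98 ± 0.08 in WT (adjusted p = 3.97e-09).

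Ticam2, which encodes the bridging adaptor TRAM, moved the other way from Ticam1. KO libraries had 972, 968 and 1047 normalised counts with the combination, against 1107, 1297 and 1144 with anti-PD-1, and 1020, 1000 and 1070 with LGG, against 1149, 1209 and 1263 with IgG. WT libraries had 344, 360 and 307 with the combination, against 775, 829 and 855 with anti-PD-1, and 321, 353 and 368 with LGG, against 653, 706 and 648 with IgG. Groups did not overlap in either genotype, and the WT libraries with LGG held the lowest 6 values. The log2 difference for LGG against IgG was -0.23 ± 0.08 in KO (adjusted p = 0.0367) and -0.95 ± 0.08 in WT (adjusted p = 5.1e-09). For the combination against anti-PD-1 it was -0.25 ± 0.08 in KO (adjusted p = 0.0234) and -1.28 ± 0.08 in WT (adjusted p = 4.96e-11).

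The KO fall of Ticam2 depended on single libraries. For LGG it missed the threshold without KO IgG replicate 2 or 3 or KO LGG replicate 1 or 2 (-0.20 to -0.23, adjusted p = 0.0805 to 0.128), and with a trend in transcript length and GC content removed (-0.15, adjusted p = 0.136). For the combination it missed without KO anti-PD-1 replicate 2 (-0.18, adjusted p = 0.0734), KO combination replicate 1 (-0.23, adjusted p = 0.0746) or KO combination replicate 2 (-0.23, adjusted p = 0.0794), and without the 3 libraries that stand apart (-0.15, adjusted p = 0.208). Ticam2 shares 14.47% of its exon bases with Tmed7 on the same strand, so reads there fit both genes. Whether such reads were counted for Ticam2 was not examined.

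Traf6, the ubiquitin ligase below the IRAK kinases, rose with LGG (ENSMUSG00000027164, chr2:101678429-101701669, plus strand). KO libraries had 1932, 1902 and 1877 normalised counts with the combination, against 1199, 1630 and 1344 with anti-PD-1, and 2147, 1586 and 2514 with LGG, against 1143, 1173 and 1277 with IgG. WT libraries had 3941, 4180 and 4010 with the combination, against 1632, 1859 and 1935 with anti-PD-1, and 3438, 3665 and 4152 with LGG, against 1618, 1742 and 1639 with IgG. The groups compared did not overlap in either genotype, though KO LGG replicate 2 (1586) lay below KO anti-PD-1 replicate 2 (1630). With LGG, Traf6 was 1.71-fold the IgG level in KO (log2 0.77 ± 0.13, adjusted p = 0.00011) and 2.24-fold in WT (1.17 ± 0.13, adjusted p = 2.29e-07). With the combination, against anti-PD-1, the log2 difference was 0.46 ± 0.13 in KO (adjusted p = 0.00905) and 1.16 ± 0.13 in WT (adjusted p = 2.22e-07). Without KO anti-PD-1 replicate 1 the KO value was 0.36 (adjusted p = 0.0559).

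Irak3, which encodes the inhibitor IRAK-M, rose with LGG in both genotypes. KO libraries had 899, 913 and 887 normalised counts with the combination, against 475, 496 and 426 with anti-PD-1, and 891, 782 and 937 with LGG, against 534, 487 and 524 with IgG. WT libraries had 1216, 1189 and 1257 with the combination, against 425, 484 and 510 with anti-PD-1, and 1001, 1084 and 1141 with LGG, against 432, 460 and 450 with IgG. Libraries with and without LGG did not overlap. For LGG against IgG the log2 difference was 0.75 ± 0.09 in KO (adjusted p = 9.27e-07) and 1.26 ± 0.09 in WT (adjusted p = 1.27e-10). For the combination against anti-PD-1 it was 0.95 ± 0.09 in KO (adjusted p = 4.16e-08) and 1.37 ± 0.09 in WT (adjusted p = 3.46e-11).

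Tollip, whose product binds IL-1 receptor and Toll-like receptor complexes and limits IRAK1 activity, rose in both genotypes. KO libraries had 4595, 4891 and 4801 normalised counts with LGG, against 3489, 3547 and 3399 with IgG. WT libraries had 3751, 3922 and 3725 with LGG, against 2818, 2909 and 2966 with IgG. The log2 difference for LGG against IgG was 0.45 ± 0.08 in KO (adjusted p = 0.000281) and 0.39 ± 0.08 in WT (adjusted p = 0.000516). The difference between these was 0.06 (95% interval -0.19 to 0.31). With the combination, Tollip had 4756, 4670 and 4891 in KO, against 3429, 3935 and 4846 with anti-PD-1, where the groups overlapped. That KO difference was 0.24 ± 0.08 (adjusted p = 0.0287). It was 0.20 (adjusted p = 0.103) with the length and GC trend removed, 0.13 (adjusted p = 0.188) without KO anti-PD-1 replicate 1, and 0.23 to 0.26 (adjusted p = 0.0525 to 0.0858) without any 1 of the 3 KO combination libraries. The WT difference was 0.34 ± 0.08 (adjusted p = 0.00193).

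Irak4, the kinase that starts the IRAK cascade, fell in both genotypes. KO libraries ranged from 1260 to 1369 normalised counts with the combination and from 1267 to 1323 with LGG, against 1568 to 1858 with anti-PD-1 and 1476 to 1602 with IgG. WT libraries ranged from 1113 to 1186 with the combination and from 1149 to 1215 with LGG, against 1389 to 1499 with anti-PD-1 and 1335 to 1469 with IgG. The log2 difference for LGG against IgG was -0.24 ± 0.07 in KO (adjusted p = 0.00958) and -0.23 ± 0.07 in WT (adjusted p = 0.00863). The difference between these was -0.02 (95% interval -0.22 to 0.19). The KO value was -0.18 (adjusted p = 0.0651) with the length and GC trend removed and -0.21 (adjusted p = 0.0541) without KO IgG replicate 2, and the WT value -0.19 (adjusted p = 0.0511) without WT IgG replicate 3. With the combination, against anti-PD-1, the differences were -0.35 ± 0.07 in KO (adjusted p = 0.000524) and -0.34 ± 0.07 in WT (adjusted p = 0.000309).

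The other kinases and the bridging adaptor Tirap moved little. Irak1 fell in the WT combination against anti-PD-1 (-0.27 ± 0.09, adjusted p = 0.019), at 2158 to 2388 normalised counts against 2709 to 2780. Without WT combination replicate 1 it was -0.23 (adjusted p = 0.0786). For LGG against IgG in WT, Irak1 differed by -0.15 ± 0.09 and did not pass (adjusted p = 0.188), although the groups did not overlap. It passed with only the compared libraries in the fit (adjusted p = 0.0481) and without the 3 libraries that stand apart (adjusted p = 0.0221). Irak2, a kinase that sustains late signalling, was called in none of the 4 LGG comparisons. In the WT combination against anti-PD-1 it passed without WT combination replicate 3 (-0.19, adjusted p = 0.0258). In the test of KO minus WT for LGG, Irak2 passed without WT LGG replicate 1 (0.25, adjusted p = 0.0471). Tirap ranged from 207 to 460 in KO and from 281 to 466 in WT, with the widest spread in KO anti-PD-1 (207, 287 and 430), and was called in none.

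In KO, Myd88 itself fell with LGG. The log2 difference for LGG against IgG was -0.62 ± 0.19 (adjusted p = 0.0157), and for the combination against anti-PD-1 -0.83 ± 0.19 (adjusted p = 0.00177). The first was -0.49 to -0.58 (adjusted p = 0.0541 to 0.0827) without KO IgG replicate 1 or 2 or KO LGG replicate 1 or 3, and missed the threshold with only the compared libraries in the fit (adjusted p = 0.0683). In that fit the combination also missed it (adjusted p = 0.117). In WT, Myd88 did not pass in either comparison, and the groups overlapped.

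**Figure D2:**
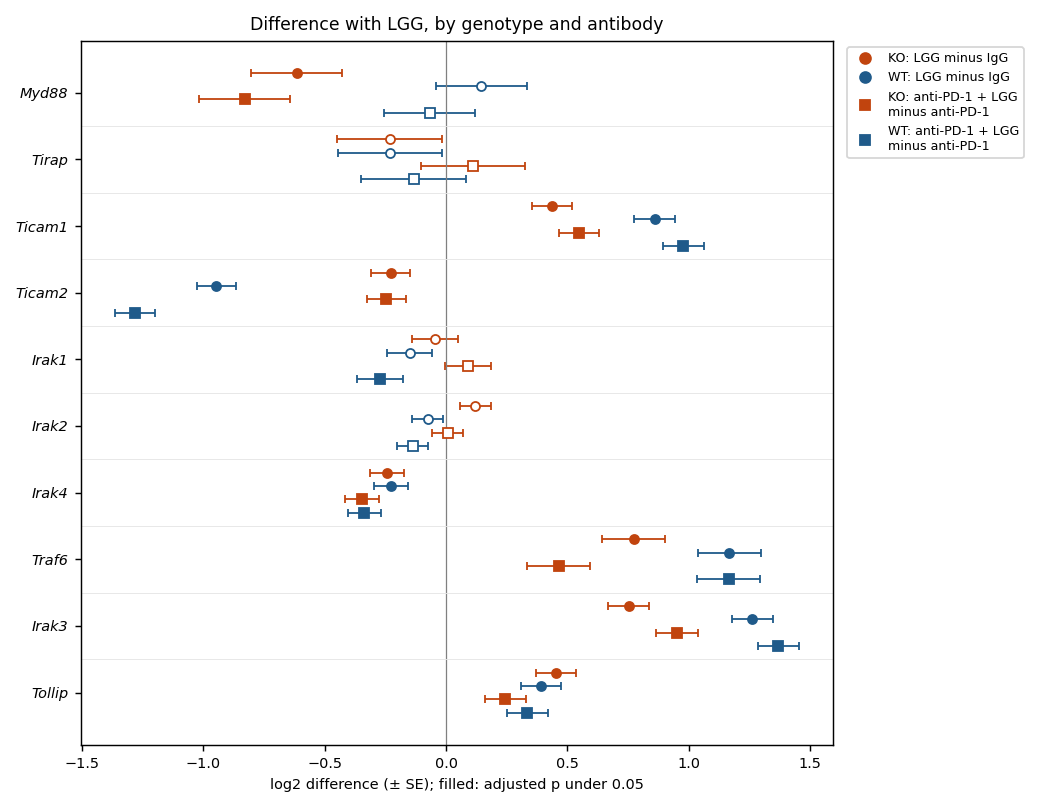
Log2 difference with LGG (x axis, ± SE) for each gene, in KO (orange) and WT (blue), for LGG minus IgG (circles) and for the combination minus anti-PD-1 (squares). Filled symbols have an adjusted p under 0.05. Ticam1, Traf6, Irak3 and Tollip lie right of 0 in all 4 comparisons, and Ticam2 and Irak4 left of 0.

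Summed marker levels of 6 cell types differed between LGG and IgG without overlap in KO, and for all but B cells in WT. Summed macrophage markers were 277003 to 379866 with LGG, against 389478 to 433702 with IgG, in KO, and 80227 to 88844, against 275503 to 297200, in WT. Summed markers of conventional dendritic cells were 253678 to 398306 with LGG, against 224583 to 241120 with IgG, in KO, and 332413 to 382356, against 231200 to 257977, in WT. Summed natural killer cell markers were 10823 to 16357, against 3160 to 3667, in KO, and 50686 to 58194, against 34437 to 36470, in WT. Summed T cell markers were 15215 to 17638 with LGG, against 7574 to 8100 with IgG, in KO, where 14 of 14 rose. In WT they were 21183 to 21991, against 17762 to 18713, where 5 of 14 rose and 3 fell. Summed B cell markers were 335.6 to 471.3, against 216 to 233.7, in KO, and 1006 to 1253, against 1069 to 1100, in WT, where the groups overlapped. Summed neutrophil markers were 711.4 to 886.2, against 528.5 to 541.8, in KO, and 1484 to 1616, against 1656 to 1719, in WT. Single markers that rose and fell in KO were 7 and 0 of 13 for dendritic cells, and 2 and 4 of 12 for macrophages. They were 7 and 0 of 7 for natural killer cells, 6 and 0 of 7 for B cells, and 5 and 1 of 10 for neutrophils. In WT they were 7 and 3, 1 and 9, 4 and 2, 3 and 1, and 3 and 4, in this order. The WT neutrophil median log2 was 0.29, though the sum was lower. Over all genes, 18.1% rose and 14.2% fell in KO, and 27.4% rose and 28.2% fell in WT. The part of the marker sums and of Itgax in the results was not tested.

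Whether the LGG differences depend on genotype was tested as the difference in KO minus that in WT. For LGG against IgG, 4 of 10 members were called (1 higher, 3 lower in KO), where 34.9% of all genes were called (19.5% higher, 15.4% lower). For the combination against anti-PD-1, 6 were called (2 higher, 4 lower), where 37.7% of all genes were called (20.5% higher, 17.2% lower). The first 4 were called in the same direction in the second. Ticam1 rose less in KO, by -0.42 ± 0.12 (adjusted p = 0.0078) for LGG and -0.43 ± 0.12 (adjusted p = 0.00698) for the combination. Irak3 rose less in KO, by -0.51 ± 0.12 (adjusted p = 0.00226) and -0.42 ± 0.12 (adjusted p = 0.00933). Ticam2 fell less in KO, by 0.72 ± 0.12 (adjusted p = 5.71e-05) and 1.03 ± 0.12 (adjusted p = 6.06e-07).

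Traf6 rose less in KO for the combination (-0.70 ± 0.18, adjusted p = 0.00532). For LGG alone the difference was -0.39 ± 0.18 and did not pass (adjusted p = 0.108). It was -0.54 (adjusted p = 0.0187) without KO LGG replicate 3, and -0.48 (adjusted p = 0.000285) with the length and GC trend removed. Myd88 differed between genotypes by -0.76 ± 0.27 for LGG (adjusted p = 0.0312) and -0.76 ± 0.27 for the combination (adjusted p = 0.0291). For LGG it was -0.64 to -0.75 (adjusted p = 0.0562 to 0.0857) without any 1 of 7 libraries: WT IgG replicate 2, WT LGG replicate 1 or 2, KO IgG replicate 1 or 2, or KO LGG replicate 1 or 3. For the combination it was -0.53 to -0.76 (adjusted p = 0.0502 to 0.0831) without any 1 of 8: WT anti-PD-1 replicate 2 or 3, WT combination replicate 1 or 3, KO anti-PD-1 replicate 1 or 3, or KO combination replicate 1 or 3. Irak1 differed by 0.36 ± 0.13 for the combination (adjusted p = 0.0389). It missed the threshold with edgeR (adjusted p = 0.052), with a replicate block (adjusted p = 0.054), with the length and GC trend removed (0.24, adjusted p = 0.0735), and without any 1 of 10 libraries (0.24 to 0.38, adjusted p = 0.05 to 0.101). The exceptions were KO anti-PD-1 replicate 2 and WT combination replicate 3. With only the compared libraries in the fit, 4 of the 6 combination calls were made, where Myd88 (adjusted p = 0.0722) and Irak1 (adjusted p = 0.0928) missed the threshold and 29.8% of all genes were called.

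KO was also set against WT within each treatment, which asks how the adaptors stood in cells labelled as lacking Myd88. With the combination 8 of 10 members were called (4 rose, 4 fell), beside 58.1% of all genes (30.4% rose, 27.7% fell). With LGG 7 were called (3 rose, 4 fell), beside 55.2% of all genes (28.2% rose, 27% fell). With anti-PD-1 6 were called (4 rose, 2 fell), beside 45.7% of all genes (24.1% rose, 21.7% fell). With IgG 5 were called (3 rose, 2 fell), beside 39% of all genes (19.1% rose, 20% fell). Ticam2, Irak2 and Tollip rose in KO, and Myd88 and Traf6 fell, under all 4 treatments. Tirap and Irak1 were called under none. With anti-PD-1, Tirap differed by -0.52 ± 0.22 (adjusted p = 0.0553), and by -0.55 (adjusted p = 0.047) with TMM scaling and -0.79 (adjusted p = 0.0018) without KO replicate 2. Without that library the Irak1 difference was -0.26 (adjusted p = 0.0148). With the combination and only the compared libraries in the fit, both passed, at -0.28 for Tirap (adjusted p = 0.00793) and 0.21 for Irak1 (adjusted p = 0.00124). Beside these counts, summed natural killer cell markers were 3160 to 3667 in KO and 34437 to 36470 in WT with IgG. Summed macrophage markers with IgG were 389478 to 433702 in KO and 275503 to 297200 in WT. Although that sum was higher in KO, 4 of the 12 macrophage markers rose and 4 fell (median log2 -0.09), beside 19.1% and 20% of all genes. The balance was otherwise in the treatments with LGG. There 10 of the 12 rose and 1 fell with LGG (median 2.30), and 10 rose and 2 fell with the combination (median 1.70). With anti-PD-1, 4 rose and 2 fell (median -0.12). The shares of all genes under these treatments are given above. With IgG, summed T cell markers were 7574 to 8100 in KO and 17762 to 18713 in WT, B cell markers 216 to 233.7 in KO and 1069 to 1100 in WT, and neutrophil markers 528.5 to 541.8 in KO and 1656 to 1719 in WT. Their part in the results was not tested.

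Ticam2 had the largest rise among the members in KO under all 4 treatments. It was 2.95-fold higher with the combination (log2 1.56 ± 0.08, adjusted p = 2.33e-12), 2.96-fold with LGG (1.57 ± 0.08, adjusted p = 2.42e-12), 1.44-fold with anti-PD-1 (0.53 ± 0.08, adjusted p = 5.49e-05) and 1.80-fold with IgG (0.85 ± 0.08, adjusted p = 6.84e-08). Every KO library was above every WT library, at 968 or more against 855 or fewer. Irak2 lay between 2957 and 3530 normalised counts in KO and between 2307 and 2845 in WT, with no overlap over the 24 libraries. Its log2 difference was 0.46 ± 0.06 with the combination (adjusted p = 4.19e-06), 0.44 ± 0.06 with LGG (adjusted p = 8.25e-06), 0.31 ± 0.06 with anti-PD-1 (adjusted p = 0.000938) and 0.24 ± 0.06 with IgG (adjusted p = 0.0055). Tollip rose by 0.26 to 0.40 (adjusted p = 0.00104 to 0.0172). With IgG it was 0.24 (adjusted p = 0.0596) without WT replicate 1 and 0.25 (adjusted p = 0.0565) without KO replicate 2.

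Traf6 was lower in KO by -1.09 ± 0.13 with the combination (adjusted p = 5.61e-07), -0.87 ± 0.13 with LGG (adjusted p = 1.04e-05), -0.39 ± 0.13 with anti-PD-1 (adjusted p = 0.0243) and -0.48 ± 0.13 with IgG (adjusted p = 0.00655). The anti-PD-1 value was -0.10 (adjusted p = 0.205) with the length and GC trend removed, and -0.28 to -0.37 (adjusted p = 0.0714 to 0.114) without WT replicate 2 or 3 or KO replicate 1 or 3. Ticam1 fell in KO with the combination (-0.47 ± 0.08, adjusted p = 7.25e-05) and with LGG (-0.52 ± 0.08, adjusted p = 2.05e-05), and so did Irak3 (-0.44 ± 0.09, adjusted p = 0.000168, and -0.31 ± 0.09, adjusted p = 0.00438). The Irak3 value with LGG missed the threshold with only the compared libraries in the fit (adjusted p = 0.0628). Neither passed with anti-PD-1 or with IgG. Irak4 rose in KO with the combination (0.21 ± 0.07, adjusted p = 0.0116) and with anti-PD-1 (0.23 ± 0.07, adjusted p = 0.015). The combination value was 0.12 (adjusted p = 0.171) with the length and GC trend removed. The anti-PD-1 value of Irak4 was 0.12 (adjusted p = 0.194) without the 3 libraries that stand apart, 0.16 (adjusted p = 0.0828) without KO replicate 3, and 0.20 (adjusted p = 0.055) without WT replicate 1. With only the compared libraries in the fit, 0 members were called with anti-PD-1, where 6.24% of all genes were called.

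**Figure D3:**
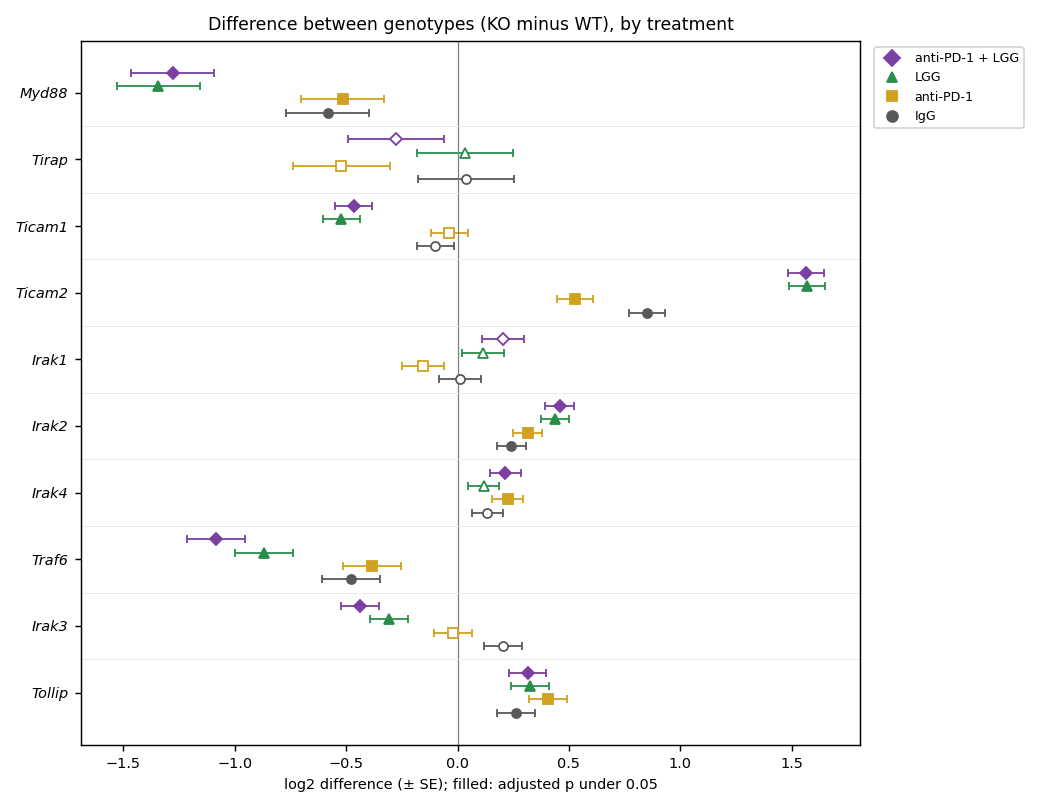
Log2 difference of KO minus WT (x axis, ± SE) for each gene, within each of the 4 treatments. Filled symbols have an adjusted p under 0.05. Ticam2 lies to the right at 0.53 to 1.57, and Myd88 and Traf6 lie to the left, farthest from 0 in the treatments with LGG.

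Anti-PD-1 was compared with and without LGG. For anti-PD-1 against IgG, limma called 0 members in KO (1.8% of all genes) and 0 in WT (0.0314%). For the combination against LGG it called 0 in KO (0.275%) and 0 in WT (0.0628%). At an unadjusted p under 0.05 there were 3 and 1 members for anti-PD-1 against IgG in KO and in WT, and 0 and 1 for the combination against LGG in KO and in WT. The share of all genes at that unadjusted threshold was not computed, so these counts cannot be set against the shares above. The shares of all genes called after adjustment depended on the libraries in the fit. For anti-PD-1 against IgG in KO the share was 35.9% without KO anti-PD-1 replicate 2 and 0% with only the compared libraries, and in WT it was 13.8% with only the compared libraries. Without the 3 libraries that stand apart, the share for the combination against LGG was 11.3% in KO and 8.59% in WT, and it was 0% in KO and 1.14% in WT with only the compared libraries. DESeq2 called 1 member, Ticam2 in WT for anti-PD-1 against IgG (0.29, adjusted p = 0.0241), beside 1.62% of all genes, and edgeR called 0. Ticam2 had 775, 829 and 855 normalised counts in WT with anti-PD-1, against 653, 706 and 648 with IgG, and these did not overlap. Its limma difference was 0.29 ± 0.08 (adjusted p = 0.247). In KO, anti-PD-1 against IgG gave a call for Tirap without KO anti-PD-1 replicate 2 (-0.61, adjusted p = 0.025), beside 35.9% of all genes. Without KO anti-PD-1 replicate 1 it gave a call for Tollip (0.33, adjusted p = 0.0128), beside 5.84% of all genes.

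Levels were compared between genes only as normalised counts per kilobase of exon. In KO libraries with the combination the order was Tollip (943 ± 22), Irak2 (786 ± 8.7), Irak1 (558 ± 15.8), Ticam1 (335 ± 21.3), Myd88 (291 ± 3.1), Irak4 (265 ± 12), Irak3 (245 ± 3.6), Traf6 (242 ± 3.4), Ticam2 (172 ± 7.7) and Tirap (64.6 ± 3.1; all SD, n = 3). Irak3 and Traf6 lay within their SDs of each other. In WT libraries with IgG the order was Myd88 (738 ± 42.5), Irak2 (594 ± 20.5), Tollip (573 ± 14.8), Irak1 (556 ± 41), Irak4 (277 ± 13.9), Ticam1 (250 ± 16.4), Traf6 (211 ± 8.4), Irak3 (122 ± 3.8), Ticam2 (116 ± 5.6) and Tirap (74 ± 4). There Irak2, Tollip and Irak1 lay within their summed SDs of each neighbour, as did Irak4 and Ticam1, and Irak3 and Ticam2. Tirap was the lowest of the 10 in both groups.

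Beyond the adaptors, 4 lists of pathway genes were counted, which were chosen with earlier results of these data known. For LGG against IgG, other negative regulators of the pathway rose in 12 of 20 tested genes in KO and fell in 0 (median log2 0.54), and rose in 15 and fell in 0 in WT (median 0.75), where the median of all genes was 0 in KO and -0.003 in WT. Over all genes, 18.1% rose and 14.2% fell in KO, and 27.4% rose and 28.2% fell in WT. Il1rn, the secreted antagonist of the IL-1 receptor, had 14415 normalised counts with LGG, against 2558 with IgG, in KO (log2 2.49 ± 0.16, adjusted p = 2.92e-10), and 37587 with LGG, against 2273 with IgG, in WT (4.05 ± 0.16, adjusted p = 2.47e-14). Nfkbie, an inhibitor of NF-kB, rose by 2.51 ± 0.09 in KO (adjusted p = 4.77e-14) and 2.38 ± 0.09 in WT (adjusted p = 8.17e-15). Tnip1, a partner of the deubiquitinase A20, rose by 1.14 ± 0.06 in KO (adjusted p = 3.13e-11) and 1.85 ± 0.06 in WT (adjusted p = 2.68e-15). Zc3h12a, an RNase that degrades cytokine messages, averaged 1114 with LGG, against 989 with IgG, in KO, and 5640 with LGG, against 1095 with IgG, in WT, and rose less in KO by -2.20 ± 0.09 (adjusted p = 5.37e-13). In the test of KO minus WT, 9 of the 20 were lower and 1 higher, beside 15.4% and 19.5% of all genes.

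Transcription factors of the pathway rose in 9 of 15 and fell in 1 in KO (median 0.63), and rose in 11 and fell in 1 in WT (median 1.27), beside the same shares and medians of all genes. Nfkb2, a subunit of non-canonical NF-kB, rose by 1.65 ± 0.09 in KO (adjusted p = 1.9e-11) and 2.48 ± 0.09 in WT (adjusted p = 4.46e-15). Irf7, which drives interferon genes, rose by 2.54 ± 0.17 in KO (adjusted p = 6.77e-10) and 3.73 ± 0.17 in WT (adjusted p = 2.94e-13). Fos, a subunit of AP-1, fell by 0.66 in KO (adjusted p = 7.53e-05) and by 2.26 in WT (adjusted p = 7.14e-13). Of the 15, 8 were lower and 1 higher in the test of KO minus WT, beside 15.4% and 19.5% of all genes.

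Receptors and their accessory proteins rose in 5 of 21 and fell in 2 in KO, and rose in 6 and fell in 8 in WT. In KO this is 7 of 21 called, near the 32.2% of all genes, and in WT 14 of 21, beside 55.5%. Tlr2, which senses bacterial lipoproteins, averaged 2627 normalised counts with LGG, against 814 with IgG, in KO (1.69 ± 0.06, adjusted p = 7.45e-14), and 2863 with LGG, against 849 with IgG, in WT (1.75 ± 0.06, adjusted p = 3.72e-15). The difference between genotypes was -0.06 ± 0.08 for Tlr2 (adjusted p = 0.607). Cd14, a co-receptor of TLR4 that is also on the macrophage list, averaged 6683 with LGG, against 4667 with IgG, in KO, and 28414 with LGG, against 2719 with IgG, in WT, and rose less in KO by -2.88 ± 0.17 (adjusted p = 9.81e-11). Tlr13, a sensor of bacterial ribosomal RNA, was 2364 with LGG, against 2344 with IgG, in KO (adjusted p = 0.967), and fell to 509 with LGG, against 2097 with IgG, in WT (-2.04 ± 0.09, adjusted p = 1.6e-13). Unc93b1, a chaperone of the endosomal receptors, fell in WT (-1.47 ± 0.08, adjusted p = 3.84e-12) and did not pass in KO (adjusted p = 0.488).

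Kinases and ubiquitin enzymes below the adaptors rose in 5 of 28 and fell in 1 in KO, and rose in 8 and fell in 6 in WT. In KO 6 of 28 were called, beside 32.2% of all genes, and in WT 14 of 28, beside 55.5%. Ikbkb, the kinase that releases NF-kB, rose in WT (0.79 ± 0.06, adjusted p = 6.34e-10), where the KO value did not pass (adjusted p = 0.494), and the difference between genotypes was -0.73 ± 0.08 (adjusted p = 9.52e-07). Mapk14, which encodes p38 alpha, fell in WT (-1.34 ± 0.09, adjusted p = 8.21e-11), at 1368 normalised counts against 3467. Peli2, a ubiquitin ligase of the IRAK kinases, also fell in WT (-1.16 ± 0.08, adjusted p = 3.9e-10).

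**Figure D4:**
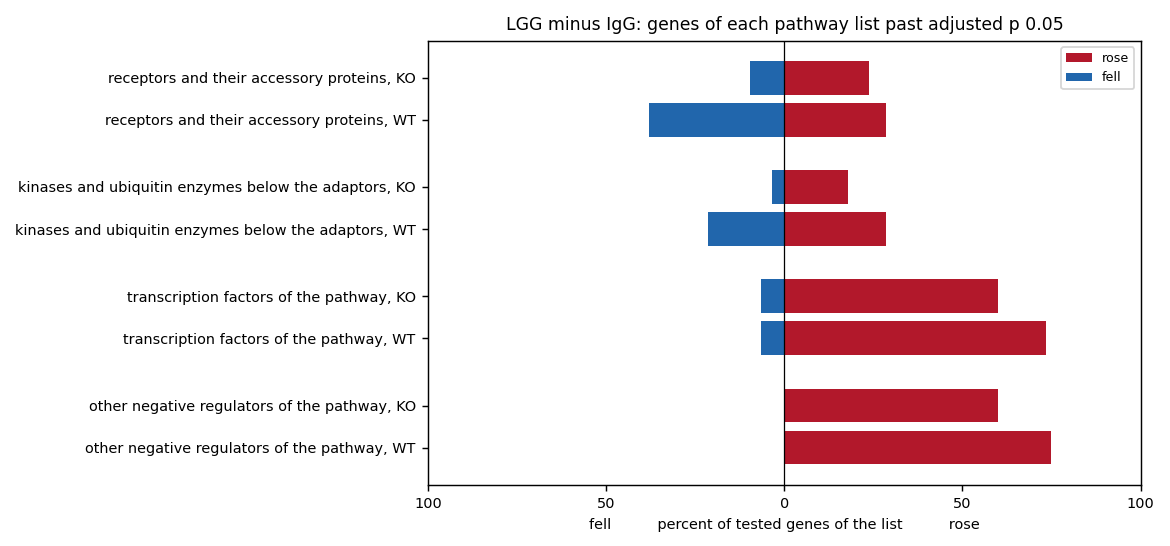
Percent of the tested genes of each pathway list (x axis) that rose (red, right) or fell (blue, left) in LGG minus IgG, in KO (upper bar) and WT (lower bar). Negative regulators rose in 12 of 20 genes in KO and 15 of 20 in WT, with none falling. For the combination minus anti-PD-1, not drawn, 11 of 20 rose and 1 fell in KO, beside 19.7% and 17% of all genes. In WT 15 rose and 0 fell, beside 27.7% and 29.1% of all genes.

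The members also varied together over the 24 libraries, which share groups and processing, so correlations are given as description. Pearson's r of log2 values was 0.95 between Ticam1 and Irak3, 0.92 between Ticam1 and Traf6, and -0.88 between Ticam2 and Traf6. Among 10324 genes with a mean of at least 100, Traf6 was most like Specc1l (0.995), Parp12 (0.989) and Helz2 (0.985). Irak3 was most like Cyp1b1 (0.991), Mdm2 (0.986) and Lox (0.984). Myd88 was most like Calhm6 (0.966), Pdk3 (0.956) and Tk1 (0.95), Irak2 like Fosb (0.945), Ncstn (0.933) and Gm49339 (0.93), and Tirap like B230219D22Rik (0.946), Gopc (0.941) and Esyt2 (0.925).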

How the data were processed

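The deposited values are a normalised signal per gene: per the submitters' processing notes, the authors aligned reads with STAR 2.4.0 to mm10, counted them with HTSeq 0.6.1 and used DESeq2, and values are read counts over a size factor per library. Dividing by each library's step returned whole reads for 100% of values (tolerance 0.001). The whole reads served edgeR 4.0.16 and DESeq2 1.42.0 as alternatives. Tests used limma 3.58.1 (R 4.3.3) on log2(value + 1) for 12749 genes whose mean reached 10, with 1 mean per group over all 24 libraries, mean-variance trend and robust moderation. Fold changes are on that log2 scale. Tests were two-sided with Benjamini-Hochberg adjustment inside each of 14 comparisons, and a gene was called below 0.05. Errors are standard errors of the model, or SD over 3 libraries where stated. The code was tested on simulated counts. The members and gene lists were chosen with earlier results of these data known, and p-values for members were adjusted over all genes tested. Pathway genes named are up to 4 per list with the smallest p in the WT LGG comparisons. The 3 most correlated genes were named for Myd88, Irak2, Irak3, Tirap and Traf6. Gene positions and lengths come from GENCODE M21 on the same build, and all 10 members matched. Alternatives were TMM scaling, a pseudocount of 8, no filter, only the libraries compared, a replicate block, edgeR, DESeq2, each library left out, and the 3 libraries that stand apart left out, where KO anti-PD-1 keeps 1 library that is assumed to vary like the other groups. Removing a trend in transcript length and GC content was chosen after seeing the data. The trend held 19.74% and 13.56% of the variance of log2 values around the gene means in KO LGG replicates 2 and 3. It held 7.79% to 10.78% in the KO anti-PD-1 libraries, and 7.92% and 9.6% in WT anti-PD-1 replicates 2 and 3. In all other libraries it held 0.77% to 5.02%.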

Additional observations from a re-analysis of the deposited data

Results flagged for a closer look

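The difference with LGG differed between KO and WT in the interaction test of limma for 10 results. For LGG against IgG the KO minus WT log2 values were -0.76 for Myd88, -0.42 for Ticam1, 0.72 for Ticam2 and -0.51 for Irak3. For the combination against anti-PD-1 they were -0.76 for Myd88, -0.43 for Ticam1, 1.03 for Ticam2, 0.36 for Irak1, -0.70 for Traf6 and -0.42 for Irak3. KO and WT libraries differ also in the Y-linked counts given above, and LGG and IgG libraries in the summed markers given above, other than B cells in WT. For the combination against anti-PD-1, summed markers overlapped in KO for conventional dendritic cells, macrophages, B cells and neutrophils, and in WT for neutrophils. The other sums did not overlap there. The part of these counts in the results was not tested.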

How the results depend on the processing

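Of 140 log2 differences (10 members in 14 comparisons), 63 were called, and none of these changed sign under any alternative run. Of the 63, 40 stayed past the threshold under every alternative and 45 under every one other than leaving out a single library. Of the uncalled differences, 35 changed sign in at least 1 alternative, and 61 were called under none. With only the libraries compared in the fit, the members called numbered 4 for LGG against IgG in KO (7 otherwise), 2 for the combination against anti-PD-1 in KO (7 otherwise), 0 for KO against WT with anti-PD-1 (6 otherwise) and 1 for anti-PD-1 against IgG in WT (0 otherwise). Over all genes the share called in that fit was 21%, 9.77%, 6.24% and 13.8% in these comparisons, against 32.2%, 36.7%, 45.7% and 0.0314% otherwise. In the test of KO minus WT for the combination it called 4 members in place of 6. For anti-PD-1 against IgG in WT, DESeq2 also called 1, beside 1.62% of all genes. The fit without the 3 libraries, which leaves 1 library in KO anti-PD-1, also gave a call there. For anti-PD-1 against IgG in KO, removing the length and GC trend called 1, Traf6, beside 3.16% of all genes. For the combination against LGG in KO, leaving out the 3 libraries gave a call for Traf6. In both comparisons the fit without the 3 libraries also called more of all genes than the main fit. Leaving out each library in turn gave 4 to 6 members called for LGG against IgG in KO, 0 to 1 for anti-PD-1 against IgG in KO, and 3 to 5 for KO against WT with IgG. Over all genes the share called was 26.3% to 37.4%, 0.58% to 35.9% and 31.8% to 35.5% in these comparisons. With all libraries it was 32.2%, 1.8% and 39%. Of values that some alternative called, Tollip changed sign without the 3 libraries (-0.02, anti-PD-1 against IgG in KO). Traf6, for the combination against LGG in KO, ranged over its left-out libraries from -0.287 to 0.045. Same-numbered libraries did not deviate together (median r 0.02, against -0.01 for other numbers), so the numbers are not taken as pairs. A replicate block changed 1 call among the members, Irak1 for the combination (0.36, adjusted p = 0.054), so that 5 members in place of 6 were called in that test of KO minus WT. The standard error of a log2 difference between 2 groups was 0.06 to 0.22 over the members, which limits what could be called.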
